A study of Homo sapiens with 6 samples.

Results

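Heat shock proteins are chaperones that help other proteins fold, and the genes described here encode the constitutive and inducible chaperones of the cytosol and of the mitochondrial matrix, with the transcription factor that activates several of them. HSP70 proteins bind exposed stretches of unfolded clients and release them in an ATP cycle, J-domain proteins start that cycle, HSP110 proteins drive nucleotide exchange, HSP90 proteins act on clients that are nearly folded, and the chaperonin of mitochondria encloses a folding protein under a lid. In unstressed cells HSF1 is held largely inactive, and on stress it binds heat shock elements, which are inverted repeats of a short GAA unit in the promoters of its targets.

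The set was a list of 10 genes chosen by name: HSPA8, HSPA4, HSPH1, HSP90AA1, HSP90AB1, HSPD1, HSPE1, HSPA9, DNAJB1 and HSF1. Members were found by looking up the transcript identifier of each counted transcription unit (TU) in the GENCODE annotation, which matched 37339 of 42371 identifiers. Of the 10 genes, 9 had a matched TU, and none of the annotated transcripts of HSPA9 was among the listed identifiers, so that the expression of HSPA9, the mitochondrial HSP70, was not analysed here. An estimate needed a PRO-seq level over 10 TPM and an RNA-seq level over 1 TPM; all 9 genes met this, as did 9929 TUs in all, of which 8733 were mRNAs.

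The samples were K562 cells, a human chronic myelogenous leukemia line with erythroid features, grown without treatment, and all libraries came from the same source of cells. RNA-seq of total RNA depleted of rRNA was made in 4 replicates, and PRO-seq, which maps RNA polymerases engaged in transcription by a nuclear run-on, in 2 replicates. No stress was applied and no other cell type was compared, so the results concern unstressed growth only, and p-values measure the spread between libraries of 1 cell source, which may be technical. Levels are in TPM, the counts of a TU per length scaled to the same total in every library, with RNA-seq counts divided by exon length and PRO-seq counts by the span of the TU less 1000 bp. The ratio of RNA-seq TPM to PRO-seq TPM is the half-life estimate of the study: at steady state it is proportional to RNA half-life and has no time unit. PRO-seq counts engaged polymerases, so more initiation and slower elongation cannot be told apart in it, and in bulk libraries neither can fewer cells with an RNA and less RNA per cell. It is given as log2 and relative to the median mRNA, whose own log2 half-life was -0.64 with an SD of 1.68 across mRNAs.

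The RNA-seq libraries held 5732780 to 9002746 counts on TUs and the PRO-seq libraries 6993816 and 7245632. All 11 erythroid markers checked exceeded 10 TPM in RNA-seq, with a summed level of 12187 to 13069 TPM per library. Of 9 markers of other cell types 6 were matched; EPCAM and KRT19 stood at 119.8 and 373.8 TPM, and CD3E, MS4A1, ALB and COL1A1 were below 0.5 TPM. RNA-seq replicates 1 and 3, and likewise 2 and 4, lay closer to each other than other pairs, with a chi-square per degree of freedom of 1.11 and 1.12 against 1.74 to 2.11 for the other RNA-seq pairs, and summing them left the calls below as they were.

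The heat shock elements of these promoters are shown first, since they are the sequence that ties several members to HSF1. RefSeq promoters (GRCh38.p14, 250 bases before to 50 bases after each annotated start) were found for 9 of the 10 genes, with 15 starts in all; none was found for HSF1. They were searched for 2 adjoining units, GAANNTTC or TTCNNGAA, each of which reads the same on both strands, and for 3 adjoining units, GAANNTTCNNGAA or its reverse complement TTCNNGAANNTTC, which contain the shorter forms. Among all 35116 promoters 13.5% held at least 1 match to the 2-unit form and 0.49% at least 1 match to the 3-unit form. Counted per start, as those shares are, the 2-unit form was found at 7 of the 15 member starts and the 3-unit form at 4. The 3-unit form was found in 4 members, and the matches are capitals in the lines below, read on the strand of the gene:

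HSPA8, from 230 bases before the start, chr11:123062347-123062373, minus strand: cgagcttGAAAGTTCCAGAAcgctgcg

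HSPA8, from 55 bases before the start, chr11:123062172-123062198, minus strand: gggccccTTCTGGAAGGTTCtaagata

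HSP90AA1, inner start, from 88 bases before it, chr14:102087113-102087139, minus strand: agggttcTTCCGGAAGGTTCgggaggc

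HSP90AB1, from 165 bases before the start, chr6:44247771-44247797, plus strand: gagcaggTTCTGGAAGATTCatgggct

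HSP90AB1, from 112 bases before the start, chr6:44247824-44247850, plus strand: gagattgTTCTGGAAGCTTCtggattc

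HSPD1, from 245 bases before the start, chr2:197500063-197500090, minus strand: gcattTTCTGGAAAGTTCTGGAAccgag

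The matches of HSP90AB1 lay before 1 of its 3 annotated starts, and that of HSPD1 before 1 of its 2. The run in HSPD1 joined 4 units, so that a match to each of the longer forms overlapped there. DNAJB1 and HSPA9 held the 2-unit form only; in DNAJB1 the match that lay closest upstream of an annotated start is given, shown because DNAJB1 is the J-domain partner of HSP70 induced by HSF1:

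DNAJB1, from 47 bases before the start, chr19:14518427-14518454, minus strand: gcgggctctgGAAGCTTCcgccggacgg

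In HSP90AA1 the match lay before the inner of 2 annotated starts, which are 52705 bases apart, and not before the outer one, a distinction that returns below because the counted transcript began at the outer start. No match was found in the windows of HSPA4, HSPH1 and HSPE1, which says only that these letters were absent from those windows. A match is a description of the letters and not a measure of binding.

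The members spanned 81.2-fold in RNA level and 78.3-fold in nascent transcription, and their orders differed. HSPA8 and HSP90AB1 led both assays. HSP90AA1 was the next highest in RNA, yet in PRO-seq it stood below HSPA4, DNAJB1 and HSF1, and HSPE1 and HSPD1 were the lowest in PRO-seq while exceeding DNAJB1, HSPH1 and HSF1 in RNA. Together the 9 genes held 1.03% of all RNA-seq TPM and 0.262% of all PRO-seq TPM. The PRO-seq places and share rest on the span of the counted transcript. For HSP90AA1, DNAJB1 and HSPD1 it was 9.30, 3.76 and 2.33 times that of the principal transcript in the annotation. With principal lengths HSP90AA1 differed from HSP90AB1 in PRO-seq by -0.79 (log2), against -3.81 with counted lengths, so its low place in PRO-seq depended on the transcript model.

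By the edgeR quasi-likelihood test with Benjamini-Hochberg adjustment over all 9929 TUs, 8 of the 9 members lay above the median mRNA in half-life and none below at an adjusted p under 0.05; HSF1 was not called in either direction. At an unadjusted p under 0.05, and by DESeq2, the counts were also 8 and 0. The test called 40.4% of all TUs above and 50.0% below, so a call by itself says little, and the size of the difference carries more. Of the 9, 6 ranked above 90% of mRNAs, and the median over the 9 was 2.65 on the log2 scale relative to the median mRNA, against -0.23 over all TUs tested. Tested against a 2-fold change, 6 members stayed above the median mRNA and none lay below, where 21.5% of all TUs were called above and 29.2% below; DNAJB1 and HSPH1 were the members lost, with adjusted p of 0.67 and 1.0.

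**Figure D1:**
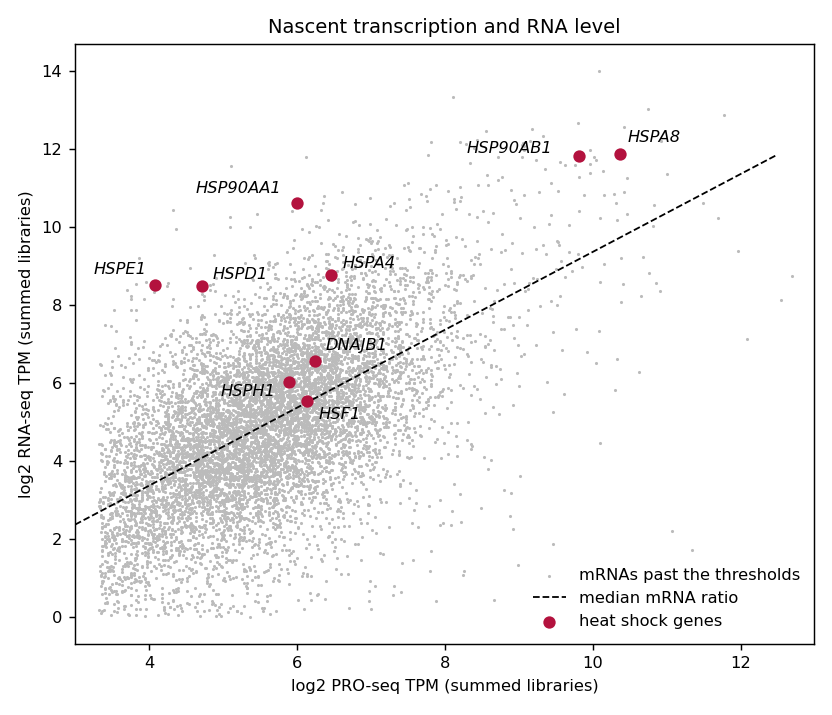
log2 RNA-seq TPM against log2 PRO-seq TPM, both from summed libraries with counted transcript lengths, for 8733 mRNAs (grey) and 9 heat shock genes (red), with the ratio of the median mRNA as a dashed line. HSP90AA1, HSPD1 and HSPE1 sit farthest above the line, HSPA8 and HSP90AB1 at high levels in both assays, and HSF1 on the line.

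HSPA8 encodes HSC70, the constitutive HSP70 of the cytosol. Its RNA-seq level was 3704, 3686, 3825 and 3771 TPM in replicates 1 to 4, and its PRO-seq level 1262 and 1385 TPM. It ranked number 25 in RNA and number 31 in PRO-seq among 18964 mRNAs, so that both its transcription and its RNA level were near the top of the range, and the groups did not overlap. Its half-life estimate was 2.14 above the median mRNA on the log2 scale (SE 0.0441 from DESeq2, adjusted p = 1.5e-30 by edgeR), and setting each RNA-seq library against each PRO-seq library, 8 ratios in all, gave 2.06 to 2.21. The counted TU (ENST00000453788) lay on chromosome 11 at 122928197-122933043 (GRCh37, minus strand), and 58.7% of it was intron.

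HSPA4 and HSPH1 belong to the HSP110 family, the nucleotide exchange factors of HSP70, and they differed widely from each other in RNA. HSPA4 stood at 421.9, 433.9, 451.2 and 448.6 TPM in RNA-seq and at 87.1 and 89.5 TPM in PRO-seq. HSPH1 stood at 60.8, 67.9, 61.6 and 68.7 TPM in RNA-seq and at 60.9 and 57.9 TPM in PRO-seq, so that its lowest RNA-seq library lay just under its higher PRO-seq library and the assays overlapped. The half-life estimate of HSPA4 was 2.95 above the median mRNA (SE 0.0481, edgeR adjusted p = 1.7e-32), higher than in 95.9% of mRNAs. That of HSPH1 was 0.76 above it (SE 0.0843, edgeR adjusted p = 5.6e-12), a 1.70-fold difference that was higher than in 68.3% of mRNAs.

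Compared within each library, which needs no scaling between libraries, HSPA4 exceeded HSPH1 per length by 2.68 to 2.87 (log2) in the 4 RNA-seq libraries and by 0.52 and 0.63 in the 2 PRO-seq libraries. The ratio in transcription was thus 1.49-fold and the ratio in RNA 6.79-fold, a difference of 2.19 ± 0.12 (log2, SD from both assays) that kept its direction in all 8 combinations of libraries. An exact two-sided permutation test of 4 against 2 libraries gave p = 0.133, which is the smallest it can give in this design. Adjusted over the 3 pairs that could be tested it was also 0.133. HSPA4 (ENST00000304858, chromosome 5, 132387705-132442141, GRCh37, plus strand, 19 exons) and HSPH1 (ENST00000445273, chromosome 13, 31709111-31736525, minus strand, 16 exons) overlapped no other matched TU with a span over 1000 bp.

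HSP90AA1 and HSP90AB1 encode the inducible and the constitutive HSP90 of the cytosol. HSP90AB1 stood at 3592, 3645, 3541 and 3682 TPM in RNA-seq and at 870.9 and 922.6 TPM in PRO-seq. HSP90AA1 stood at 1500.4, 1599.7, 1546 and 1594 TPM in RNA-seq, and at only 62.1 and 65.8 TPM in PRO-seq. The half-life estimate was therefore 2.65 above the median mRNA for HSP90AB1 (SE 0.0408, edgeR adjusted p = 1e-33) and 5.25 above it for HSP90AA1 (SE 0.0480, edgeR adjusted p = 2e-38), the highest of the 9 and higher than in 99.8% of mRNAs. Per length, HSP90AA1 was at 0.431 of HSP90AB1 in RNA and at 0.0713 of it in PRO-seq, a difference of 2.60 ± 0.0321 (log2; exact permutation p = 0.133, the smallest possible, and 0.133 adjusted over 3 pairs). The 2 PRO-seq libraries happened to agree to an SD of 7.49e-05, so nearly all of the SD of this difference came from RNA-seq.

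That difference rested on the transcript that was counted. The counted HSP90AA1 transcript, ENST00000334701, spanned 58638 bp (chromosome 14, 102547386-102606023, GRCh37, minus strand), 9.30 times the 6303 bp of the principal transcript in the annotation, ENST00000216281, and it began 52642 bp upstream, with 2 exons before the body that both transcripts share. For HSP90AB1 (ENST00000620073, chromosome 6, 44213903-44221625, plus strand) the ratio of spans was 1.28. Exon lengths of HSP90AA1 were alike, 3510 and 3228 bp, so the choice acted almost entirely on the PRO-seq length. In counts the ratio of the 2 genes hardly differed between assays: HSP90AA1 drew 74468 RNA-seq and 1924 PRO-seq counts, and HSP90AB1 130103 and 3149. With principal transcript lengths for every gene and the same counts, HSP90AA1 stood 2.05 above the median mRNA and HSP90AB1 2.34, and the difference within the pair turned to -0.28; without any length it was -0.09. Both genes remained above the median mRNA (edgeR adjusted p = 4.2e-30 and 2.3e-33), but which of them had the longer half-life estimate depended on the transcript model.

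HSPD1 encodes HSP60, the ring of the mitochondrial chaperonin, and HSPE1 encodes HSP10, its lid. The principal transcripts start 836 bp apart on opposite strands of chromosome 2. Their RNA levels per counted length were nearly equal: HSPD1 stood at 347.2, 369.2, 347.9 and 361.9 TPM and HSPE1 at 349.1, 369.6, 366.0 and 386.0 TPM, and the libraries of the 2 genes overlapped in range. Of the 478 exon bases of the counted HSPE1 transcript, 50.0% were shared with its principal transcript, and they made up 42.9% of the principal exon bases. The RNA level of HSPE1 thus rests on the counted transcript, and a change of length alone does not recount its reads. In PRO-seq, HSPD1 stood at 24.4 and 28.2 TPM and HSPE1 at 16.1 and 17.6 TPM, the lowest PRO-seq levels among the members with counted lengths. The place of HSPD1 rests on a counted span 2.33 times the principal one. With principal lengths HSPD1 exceeded HSPE1 in PRO-seq by 1.87 (log2), against 0.64 with counted lengths. The half-life estimates were 4.40 above the median mRNA for HSPD1 (SE 0.0858, edgeR adjusted p = 2.3e-32) and 5.07 for HSPE1 (SE 0.343, edgeR adjusted p = 8.3e-23), which placed them above 99.4% and 99.8% of mRNAs.

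The HSPE1 value rested on few reads. The stretch counted in PRO-seq was 2157 bp long and drew 9 and 10 counts; the sum of 19 has an exact 95% Poisson interval of 11.4 to 29.7, which covers counting error only. Within libraries HSPD1 differed from HSPE1 by -0.09 to 0.00 (log2) in RNA-seq and by 0.60 and 0.68 in PRO-seq, so the half-life difference was -0.68 ± 0.0763, with HSPE1 higher (exact permutation p = 0.133, the smallest possible, and 0.133 adjusted over 3 pairs). That SD comes from 2 PRO-seq libraries that happened to hold 9 and 10 counts, and is narrower than the counting interval.

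Both chaperonin genes share their DNA with other counted TUs. On chromosome 2 (GRCh37) the counted HSPD1 TU (ENST00000426480) ran over 198351310-198381461 on the minus strand, 17194 bp farther upstream than the principal transcript, and so crossed HSPE1, HSPE1-MOB4 and MOB4 on the plus strand. HSPE1 (ENST00000409729, 3 exons) ran over 198364864-198368020, and 87.3% of the stretch counted for it in PRO-seq also belonged to the readthrough HSPE1-MOB4 on the same strand, and all of it to HSPD1 on the other. Of the exon bases of HSPE1 5.65% were shared with HSPE1-MOB4. HSPE1-MOB4 drew 140 and 112 PRO-seq counts, against 9 and 10 for HSPE1, and 130 to 248 RNA-seq counts per library, against 457 to 725. Reads that fell on more than 1 TU were set aside as ambiguous in the files, 0.94% and 0.82% of records in PRO-seq and 1.53% to 1.65% in RNA-seq, and their part in the low PRO-seq value of HSPE1 was not tested. For HSPD1, 53.5% of the stretch counted in PRO-seq was covered by TUs on the other strand and none on its own; with principal lengths HSPD1 stood at 3.27 and HSPE1 at 4.93 above the median mRNA.

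DNAJB1 encodes HSP40, a J-domain protein of the cytosol that hands clients to HSP70. It stood at 103.9, 82.5, 102.3 and 89.7 TPM in RNA-seq and at 69.6 and 81.2 TPM in PRO-seq, with every RNA-seq library above both PRO-seq libraries. The coefficient of variation over RNA-seq libraries, 10.8%, was the largest of the members, and replicates 1 and 3 were both higher than 2 and 4. Its half-life estimate was 0.96 above the median mRNA (SE 0.121, edgeR adjusted p = 6.7e-11), a 1.94-fold difference, higher than in 72.5% of mRNAs.

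The direction for DNAJB1 turned with the transcript model. The counted transcript, ENST00000396969, spanned 13660 bp (chromosome 19, 14626461-14640120, GRCh37, minus strand), 3.76 times the principal transcript, ENST00000254322, and began 10911 bp upstream of it. Its 1287 exon bases held 49.2% of the exon bases of the principal transcript, since it lacks the first exon of that transcript and ends earlier in the last, and 88.7% of its PRO-seq stretch lay under TECR on the opposite strand. With principal lengths the estimate was -1.99, below the median mRNA (edgeR adjusted p = 5.8e-18). The counts were not made anew for that alternative, so it spreads reads counted on 1 transcript over the length of another, and neither value is free of the choice.

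HSF1 encodes the transcription factor that activates heat shock genes. It stood at 49.2, 43.2, 48.1 and 43.8 TPM in RNA-seq and at 63.5 and 77.6 TPM in PRO-seq, and it was the only member with every RNA-seq library below both PRO-seq libraries. The median mRNA also had less RNA-seq than PRO-seq TPM, so HSF1 lay at the middle of mRNAs: its half-life estimate differed from the median mRNA by 0.02 (SE 0.111, edgeR adjusted p = 0.82), and the 8 combinations of libraries ran from -0.20 to 0.26. The counted TU (ENST00000528838) was the principal transcript, with 13 exons on chromosome 8, and DGAT1 on the opposite strand overlapped 6.42% of its exon bases.

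**Figure D2:**
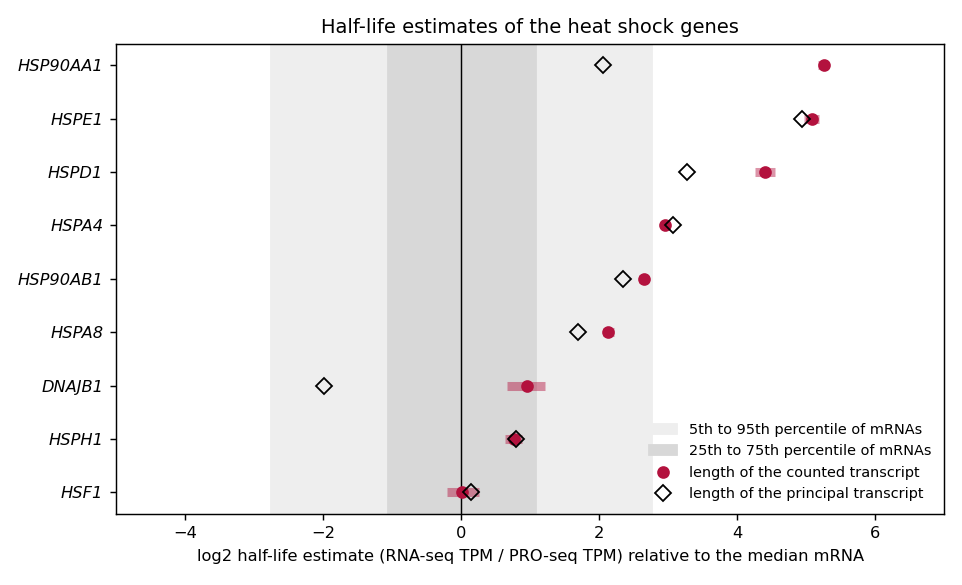
log2 half-life estimate of each member relative to the median mRNA (0), with counted transcript lengths (red points, with a bar over the 8 combinations of single libraries) and principal transcript lengths (open diamonds), over bands of the 5th to 95th and 25th to 75th percentile of mRNAs. HSP90AA1 moves from 5.25 to 2.05 and DNAJB1 from 0.95 to -1.99, while HSPA4, HSPE1, HSPH1 and HSF1 stay near their value.

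In half-life with counted lengths the order was HSP90AA1, HSPE1, HSPD1, HSPA4, HSP90AB1, HSPA8, DNAJB1, HSPH1 and HSF1. With principal lengths it was HSPE1, HSPD1, HSPA4, HSP90AB1, HSP90AA1, HSPA8, HSPH1, HSF1 and DNAJB1. With counted lengths the single-library combinations of HSP90AA1 and HSPE1 overlapped, as did those of DNAJB1 and HSPH1, and all other neighbours were separate. The separation of HSPE1 from HSPD1 rested on PRO-seq libraries with 9 and 10 HSPE1 counts, and the SE of HSPE1 was 0.343. Also with counted lengths, only HSPE1 and HSPD1 overlapped among neighbours in RNA level, and in PRO-seq DNAJB1 with HSF1, and HSF1 with HSP90AA1. The replicate SD of the log2 half-life ran from 0.0529 for HSPA4 to 0.225 for HSF1, against a median of 0.126 over mRNAs.

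Across the 9 members a counted span over 2 times the principal span occurred in 3, HSP90AA1, DNAJB1 and HSPD1, and in 7.46% of mRNAs past the thresholds. With principal lengths, edgeR called 7 members above and 1 below the median mRNA, where 41.0% of all TUs were called above and 49.9% below. The median over the 9 was then 2.05, and 4 of them ranked above 90% of mRNAs.

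The mRNAs whose levels in both assays were closest to HSP90AA1, by Euclidean distance between log2 TPM in summed libraries, were C1QBP (1623 TPM in RNA-seq and 62.7 in PRO-seq, distance 0.0640) and NDUFS5 (1372 and 61.0 TPM, distance 0.197). Those closest to HSF1 were UQCC1 (46.0 and 69.7 TPM, distance 0.0185) and EML2 (46.6 and 70.3 TPM, distance 0.0201). These are likenesses of level only, and those of HSP90AA1 rest on its PRO-seq level with the counted span, 9.30 times the principal one.

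The other chaperone genes were taken from 7 lists made by known function. Of 89 genes 86 were measured and 67 passed the thresholds, and edgeR called 44 above and 22 below the median mRNA, beside 40.4% and 50.0% of all TUs. Their median was 0.88, compared with 2.65 for the 9 heat shock genes and -0.23 for all TUs tested; the lists were not tested against each other. Against a 2-fold change 28 of the 67 lay above and 12 below, beside 21.5% and 29.2% of all TUs.

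Of the co-chaperones of HSP90, 13 of 16 were above and 2 below, with a median of 1.31. Of all TUs 40.4% were called above and 50.0% below, and the counts of this and each following list are to be read beside those shares. TSC1, best known as the partner of TSC2 in control of mTORC1 and also an HSP90 co-chaperone, was the lowest at -1.64 (edgeR adjusted p = 2.9e-18).

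J-domain proteins other than DNAJB1 went both ways, with 10 of 17 above and 7 below and a median of 0.66. DNAJA1, a farnesylated partner of HSP70, was highest at 3.27 (edgeR adjusted p = 1e-30), with 517.4 to 547.7 TPM in RNA-seq, and DNAJC16 was lowest at -1.75 (edgeR adjusted p = 5e-19). With principal lengths DNAJA1 was still the highest, at 3.39, but DNAJC9, whose counted span was 11.8 times the principal one, went from 2.61 to -3.77 and so below DNAJC16, at -2.57. Of the 10 exchange and coupling factors of HSP70, 6 were above and 4 below (median 0.51). STIP1, the adaptor that passes clients from HSP70 to HSP90, was highest at 2.41 (edgeR adjusted p = 1.3e-26), and BAG3, an exchange factor induced by stress, lowest at -1.54 (edgeR adjusted p = 1.4e-11). Both kept these places with principal lengths, at 2.82 and -1.42, while BAG1 turned from -0.88 to 0.61.

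Among mitochondrial chaperones and proteases, 9 of 14 were above and 5 below, with a median of 0.82. The highest was YME1L1, a protease of the inner membrane, at 1.84 (edgeR adjusted p = 9.9e-27), so both chaperonin genes, at 4.40 and 5.07, exceeded every gene of this list that had an estimate. With principal lengths HSPD1 stood at 3.27, HSPE1 at 4.93 and YME1L1 at 1.95. The HSPE1 value rested on 19 PRO-seq counts, on a stretch shared with HSPE1-MOB4. The lowest was DNAJC30 at -2.74 (edgeR adjusted p = 3.3e-08), which rested on 41 PRO-seq counts.

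Of the other genes listed for the HSP70 system of the cytosol and nucleus only 3 of 9 passed the thresholds. HSPA14 lay at 2.31 (edgeR adjusted p = 8.5e-24), HSPA4L at 1.09 and HSPA1L at -2.55 (edgeR adjusted p = 8.8e-11). With principal lengths HSPA4L, whose counted exon length was 3.51 times the principal one, stood at 2.84 and HSPA14 at 2.43, so that their order turned. The stress-inducible HSPA1A and HSPA1B had 140.0 and 107.3 TPM in RNA-seq, with 7 and 0 PRO-seq counts. HSPA1A, at 9.58 TPM in PRO-seq, lay just under the threshold of 10, and neither gene has a half-life estimate here. They are near-identical copies among which reads can be split or lost, and the part of this in their PRO-seq counts was not tested. Of the small heat shock proteins only HSPB1 passed, at 1.61 (SE 0.353, edgeR adjusted p = 5e-06), with PRO-seq levels of 31.2 and 91.8 TPM from 20 counts in all.

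Of the heat shock factors and their regulators 3 were above and 3 below, with a median of -0.15 in a range from -2.19 to 0.99. HSF2 was highest at 0.99 (edgeR adjusted p = 9.2e-13), with 45.3 TPM in RNA-seq and 35.6 in PRO-seq, and EP300, an acetyltransferase that acts on HSF1, lowest at -2.19 (edgeR adjusted p = 3.6e-24). With principal lengths HSF2 stood at 1.13 and HSBP1, a binding partner of HSF1 with a counted exon length 8.48 times the principal one, at 3.38 instead of 0.35, above HSF2.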

How the data were processed

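Deposited counts per TU were used as the authors made them: reads trimmed with cutadapt, aligned to GRCh38 with HISAT2 and counted with HTSeq, omitting for PRO-seq 500 bp at each end of a TU. To derive sequence features, the study's methods took 1 isoform per gene, the most abundant by Salmon; whether the count tables used the same choice, and the strand setting, were not given in the sources used here. Of PRO-seq records 86.53% and 88.56%, and of RNA-seq records 66.46% to 68.56%, named no TU and were left out of library sizes. Transcript identifiers were joined to GENCODE v44 lifted to GRCh37, whose coordinates are printed; the files hold none. Counts were summed for TPM. Overlaps were sought only among matched TUs with a span over 1000 bp. Tests used edgeR 4.0.16 (glmQLFit and glmQLFTest, TMM, offsets for length, centred on the median mRNA, Benjamini-Hochberg) in R 4.3.3; SEs came from DESeq2 1.42.0, and pairs were tested with scipy 1.17.1. The script was tested on simulated data with 200 of 9929 TUs moved by 1 (log2), where edgeR recovered 92% and made 9 false calls. The other TUs did not differ between assays there, unlike in these data, so this checks the code and not the calls above. Principal transcripts are those so tagged in the annotation, the one of shortest span where several are. Members, lists and tests were chosen with earlier results of these data known. Named genes are all members, the highest and lowest of each list, the 2 nearest mRNAs of the highest and lowest member, and overlapping genes (1 gene that the rule names is not reported here); HSPA4L, HSPA1A, HSPA1B, DNAJC9, BAG1 and HSBP1 were added after their values were seen.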

Additional observations from a re-analysis of the deposited data

How the results depend on the processing

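The count of members above the median mRNA stayed at 8 with each library left out, and the count below at 0; for the other chaperone genes these ranged from 42 to 44 and from 19 to 22. Against a 2-fold change 28 and 12 of the other chaperones were called above and below, beside 21.5% and 29.2% of all TUs. With principal transcript lengths 1 member, DNAJB1, fell below, and relative log2 half-lives were 1.70 (HSPA8), 3.07 (HSPA4), 2.05 (HSP90AA1), 2.34 (HSP90AB1), 3.27 (HSPD1), 4.93 (HSPE1) and -1.99 (DNAJB1). Within pairs HSP90AA1 minus HSP90AB1 turned from 2.60 to -0.28 with those lengths and to -0.09 with none. Without TPM thresholds the median mRNA itself moved, which raised every member: 2.76 (HSPA8), 3.57 (HSPA4), 1.39 (HSPH1), 5.88 (HSP90AA1), 3.28 (HSP90AB1), 5.03 (HSPD1), 5.71 (HSPE1), 1.58 (DNAJB1) and 0.65 (HSF1), the last then called above (edgeR adjusted p = 1.1e-17). In CPM without length the values were 4.40 (HSPA8), 2.67 (HSPA4), 1.56 (HSPH1), 4.41 (HSP90AA1), 4.51 (HSP90AB1), 3.95 (HSPD1) and 6.11 (HSPE1). With 500 bp removed HSPA8 stood at 2.26 and HSPE1 at 5.33. HSPE1 did not reach the thresholds of 20 and 2 TPM.

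With each library left out, relative log2 half-lives ranged from 2.08 to 2.19 (HSPA8), 2.93 to 2.96 (HSPA4), 0.71 to 0.81 (HSPH1), 5.22 to 5.27 (HSP90AA1), 2.62 to 2.67 (HSP90AB1), 4.31 to 4.49 (HSPD1), 5.03 to 5.13 (HSPE1), 0.86 to 1.05 (DNAJB1) and -0.11 to 0.15 (HSF1). Pair differences ranged from 2.59 to 2.61 (HSP90AA1 minus HSP90AB1), -0.73 to -0.64 (HSPD1 minus HSPE1) and 2.13 to 2.25 (HSPA4 minus HSPH1). The difference HSPD1 minus HSPE1 was -1.66 with principal lengths, -2.17 without length, -0.96 with 500 bp removed and -0.55 with a pseudocount of 1 count, and HSPA4 minus HSPH1 was 1.11 without length. Members above fell to 6 against a 2-fold change, where 21.5% of all TUs were called above. Without TPM thresholds 57 of 82 other chaperones were above and 18 below the median mRNA, which itself moved. The share of all TUs called in that setting was not taken, so no background stands beside these counts. Samples share only a replicate number (correlation of deviations -0.0525), and with the replicate block 8 members were above and 0 below, 44 and 21 other chaperones were called, and the pair differences were 2.59, -0.64 and 2.16. DESeq2, its size factors and the summed RNA-seq pairs, the last chosen after seeing the data, also gave 8 and 0. Depth limits HSPE1 most, with 19 PRO-seq counts, and the 4 against 2 design cannot give a permutation p under 0.133.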
